A study of Drosophila melanogaster with 6 samples.

Results

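Blood cells of Drosophila, the hemocytes, are mostly macrophage-like plasmatocytes, which engulf dying cells and microbes and secrete much of the basement membrane. S2 cells are a cultured line from embryos with properties of these cells, and for that reason 10 genes that define hemocyte identity were examined for peaks of CAP-D3, a subunit of Condensin II, one of the protein complexes that fold and compact chromosomes. The genes are the regulators srp and ush, the receptor Pvr, the secreted proteins Hml and Pxn, the phagocytic receptors NimC1, eater and crq, and the collagen IV chains Col4a1 and vkg. They were taken by name, 10 of 17684 genes that Release 6 plus ISO1 MT annotates on the 6 chromosome arms (2L, 2R, 3L, 3R, 4, X). Every peak that overlapped the annotated span of a gene, or 1000 bp on either side of it, by at least 1 bp was counted. Together they held 70 of the 22108 CAP-D3 peaks and 7 of the 3915 IgG peaks.

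In chromatin immunoprecipitation with sequencing (ChIP-seq), DNA is recovered with an antibody, and regions that hold more fragments than unprecipitated chromatin, the input, are called as peaks. The labels list 2 CAP-D3 samples (antibody YZ384), 2 IgG samples (normal rabbit IgG) and 2 input samples. All 6 samples are given as S2R+ cells of strain Oregon R, of embryonic type, with no treatment or genetic change, with DNA cut by 10 units of micrococcal nuclease and amplified for 15 cycles. The paper calls the cells S2-DRSC and gives another number of ChIP experiments and another amount of nuclease. The cells are a line and not hemocytes from animals, and RNA was not measured in these samples, so whether the 10 genes were expressed could not be checked. The authors deposited 1 list of peaks per antibody. No value for a single experiment was therefore at hand, so that no count below has a replicate error and no difference was tested. Read counts are not part of the lists, so library depth is unknown. Since a deeper library gives more peaks, CAP-D3 and IgG counts are set side by side without a ratio.

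CAP-D3 peaks were listed at all 10 genes. Most of the peaks lay inside the genes, whose spans also make up most of each window. The genes ush with 23 peaks, Pxn with 15 and Col4a1 with 10 accounted for 48 of the 70, whereas crq and eater had 1 each, Hml and NimC1 had 2 each, Pvr had 5, and srp and vkg had 6 each. A peak is listed within 1000 bp of 55.7% of all annotated genes, and long genes have peaks more often than short ones, so that presence of a peak at each of these genes says little by itself. The annotated spans range from 3.61 kb in NimC1 to 64.3 kb in ush. All 10 genes lie on 2L, 3L or 3R. On 2L, 2R, 3L and 3R alone, the share of genes with a peak was 62.2%.

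Every peak has a score, which is −log10 of the MACS p-value or q-value and is at least 2 in both lists. The paper reports fewer CAP-D3 binding sites than the list holds, at a stricter limit on the p-value. At a score of at least 10, peaks remained at 7 of the 10 genes, against 33.1% of all genes. The genes without such a peak were Hml, NimC1 and eater. On 2L, 2R, 3L and 3R alone, 38% of genes had a peak that reached 10. Among genes similar in length to each of the 10, as set out below, 40.4 to 77.2% had one. The count of 7 thus says little by itself. Scores of 20 or more occurred only at srp, 1 of 10 genes, against 2.69% of all genes. The 2 peaks concerned lay 73 bp apart, and this count was not set beside genes of similar length. Of the 70 peaks, 33 reached a score of 10 (47.1%) and 2 reached 20 (2.86%), and in the whole CAP-D3 list these shares were 41.9% and 2.33%. The scores ranged from 2.06 to 20.31 with a median of 9.75, and the median of the whole list was 9.16. None of the peaks at these genes was close to the highest score of the list, 141.35. Their median length was 357.5 bp, against 324 bp in the whole list.

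**Figure D1:**
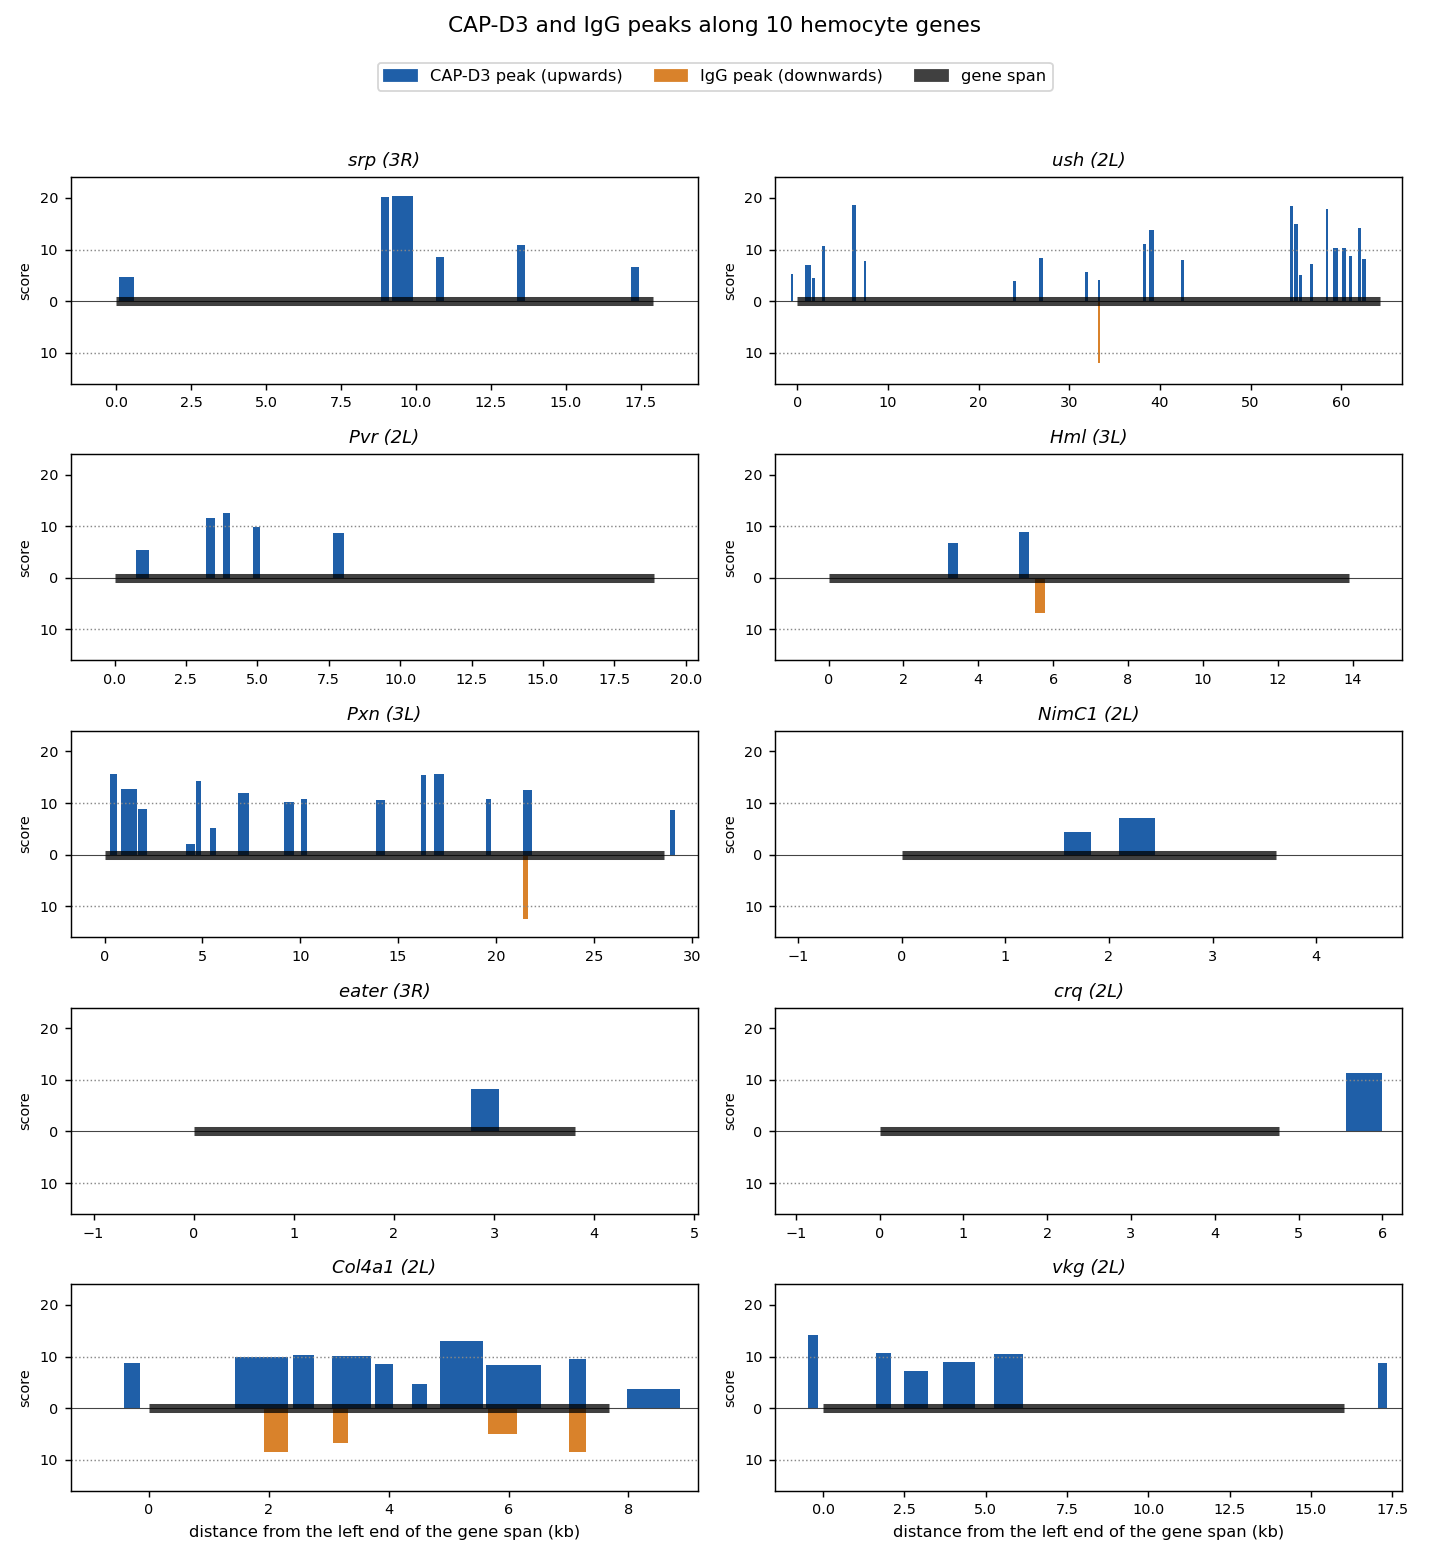
Peaks along each of the 10 genes. The horizontal axis is the distance in kb from the left end of the gene span (the end with the lower coordinate), the dark bar is the span, bars upwards are CAP-D3 peaks and bars downwards IgG peaks, bar width is peak length, bar height is the score, and dotted lines mark a score of 10. The 23 peaks of ush lie near both ends and, more spread out, in the middle, and those of Pvr and vkg lie toward the left. At Col4a1 CAP-D3 peaks cover 56.8% of the span and IgG peaks 18.6%.

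srp encodes Serpent, the GATA factor that specifies the hemocyte lineage and that hemocytes need for many of their other genes. It had 6 CAP-D3 peaks, all inside its span of 17.9 kb, and no IgG peak. Both peaks with the highest scores of the whole group lay here. MACS peak 16921 extended on 3R from 15994980 to 15995261 with a score of 20.21, and MACS peak 16922 from 15995335 to 15996039 with a score of 20.31. They were separated by 73 bp and lay in the middle of the gene, the stronger at 53.2% of the span. Only 2.08% of CAP-D3 peaks had a higher score than MACS peak 16922. Another peak above 10 lay further right, from 15999482 to 15999760, with a score of 10.85. The other 3 peaks had scores of 4.76, 8.58 and 6.62. The leftmost of them, at 1.95% of the span, also overlapped the noncoding RNA gene lncRNA:CR44133. Between this peak and MACS peak 16921, 8.23 kb held no peak.

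ush encodes U-shaped, a zinc finger protein of the Friend of GATA family that binds Serpent and limits the formation of crystal cells. It is the longest gene of the group and had the most peaks, 22 inside the span and 1 to its left. To describe positions, each span is divided into 3 equal parts. The right part held 10 peaks, within 8.37 kb on 2L from 530614 to 538982, and 6 of them reached a score of 10. The highest of these were MACS peak 151 (530614 to 530874) with a score of 18.52 and MACS peak 155 (534508 to 534763) with 17.88. In the left part lay 5 peaks, within 6.79 kb from 477061 to 483845, where MACS peak 142 (482264 to 482744) had the highest score of the gene, 18.64. The leftmost 3 of these 5 also overlapped the span of cbt. The middle part held 7 peaks with scores from 3.84 to 13.78, spread over 18.9 kb. The stretch between the peaks of the left and the middle part, 16.2 kb or 25.1% of the span, held none.

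One of the middle peaks of ush was shared with IgG. MACS peak 147, from 509362 to 509622, had 245 bp in common with an IgG peak, and its CAP-D3 score, 4.18, was lower than the score of the IgG peak, 11.93. The peaks in the left and right parts overlapped no IgG peak.

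Pvr encodes the receptor of the PDGF and VEGF type, which hemocytes use for survival and for migration in the embryo. It had 5 CAP-D3 peaks in a span of 18.9 kb and no IgG peak. All of them lay toward the left end, at 5.11 to 41.5% of the span, and 4 of them in the left part. MACS peaks 1712 and 1713 had scores of 11.67 and 12.5 and lay on 2L from 8224199 to 8224503 and from 8224759 to 8225037. The next peak, MACS peak 1714, had a score of 9.94 and so fell just short of 10. The right 10.9 kb of the gene, 57.5% of the span, held no peak.

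Hml encodes Hemolectin, a large secreted protein of the hemolymph clot that is widely used as a plasmatocyte marker. It had 2 CAP-D3 peaks, on 3L from 13849237 to 13849520 with a score of 6.78 and from 13851136 to 13851415 with a score of 8.94. An IgG peak with a score of 6.88 lay next to the second of them, from 13851557 to 13851824, and overlapped neither. Peaks of both antibodies at Hml were thus below 10, and it had fewer CAP-D3 peaks than the median of genes of similar length, 2 against 3.

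Pxn encodes Peroxidasin, a secreted peroxidase that crosslinks collagen IV in the basement membrane and that, like Hml, marks plasmatocytes. It had 15 CAP-D3 peaks, 14 of them in its span of 28.6 kb, and 11 reached a score of 10, the most of any gene of the group. The peaks were spread along the gene, with 8 in the left part, 4 in the middle and 2 in the right part. MACS peak 10075, on 3L from 2601731 to 2602075 and at 1.57% of the span, had the highest score, 15.6. MACS peaks 10085 and 10086, at 57.0 and 59.6% of the span, were close to it, with scores of 15.37 and 15.53. The weakest peak of all 70, with a score of 2.06, lay here as well, 61 bp from a peak with a score of 14.25. Between MACS peak 10088, from 2622820 to 2623295, and the right end of the gene, 6.77 kb held no peak. That peak had a score of 12.53 and contained an IgG peak of 272 bp with a score of 12.41. The peak to the right of the gene, with a score of 8.6, overlapped the noncoding RNA gene lncRNA:CR45660.

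The phagocytic receptors had few peaks. NimC1 encodes a Nimrod receptor of plasmatocytes that binds bacteria, and its 2 CAP-D3 peaks, on 2L from 13974722 to 13974984 and from 13975249 to 13975603, had scores of 4.34 and 7.18. The gene eater, which encodes another receptor of this kind for bacteria, had 1 peak, on 3R from 27098637 to 27098909, with a score of 8.15 and at 76.2% of the span. crq encodes Croquemort, a receptor of the CD36 family needed for the uptake of apoptotic cells, and it had no peak within its span of 4.77 kb. Its only peak lay outside the gene, on 2L from 453821 to 454244, with a score of 11.28. It overlapped the neighboring gene shv, lay 796 bp from the end of crq and had 204 of its 424 bp within the window. None of these 3 genes had an IgG peak.

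Because the window ends at 1000 bp, the count for crq depended on it. Another CAP-D3 peak, from 446790 to 447245 with a score of 10.13, missed the window on the left side of crq by a few bases, at a distance of 1008 bp. The crq window held 1.48 CAP-D3 peaks per 10 kb, whereas the 25 kb on each side of it held 32 peaks, or 6.4 per 10 kb. Within the window the rate exceeded that of its surroundings at 6 of the 10 genes, srp, Pvr, Hml, Pxn, Col4a1 and vkg. The difference was widest at Col4a1, with 10.3 per 10 kb in the window and 2.4 around it, whereas ush had 3.47 and 6.0. Over 2L, 2R, 3L and 3R as a whole the rate was 1.93 per 10 kb. The surroundings of crq and ush, and those of Col4a1 and vkg, include peaks counted at the other gene of the pair.

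**Figure D2:**
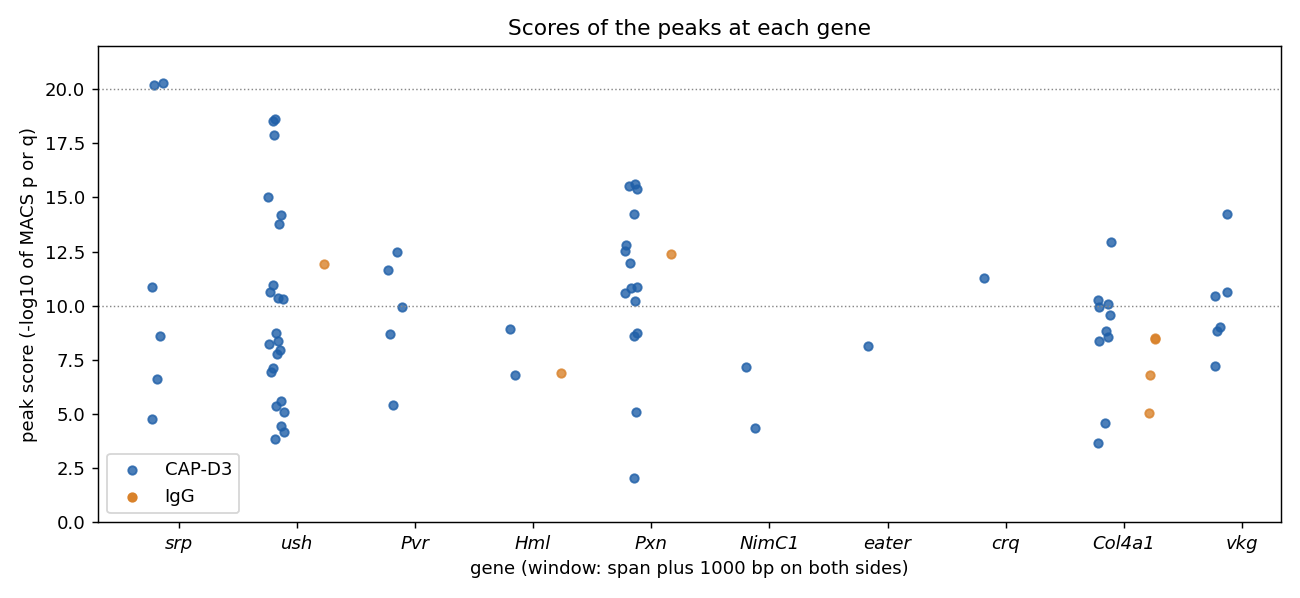
Score of every peak at each gene. The vertical axis is the score (−log10 of the MACS p-value or q-value), each point is a peak, CAP-D3 in blue and IgG in orange, points are spread sideways for legibility only, and dotted lines mark scores of 10 and 20. Scores of 20 or more occur at srp alone, and 7 IgG peaks lie at ush, Hml, Pxn and Col4a1.

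Col4a1 and vkg encode the alpha 1 and alpha 2 chains of collagen IV, the main collagen of basement membranes, which embryonic hemocytes deposit as they migrate. The genes are neighbors on 2L, and together they had 15 distinct CAP-D3 peaks, since 1 peak belonged to both windows. This peak, MACS peak 1165, lay between the genes from 5029187 to 5029455, with a score of 8.83, at 153 bp from Col4a1 and 995 bp from vkg. The peaks at these genes were wide. Of 6 peaks with a length of 800 bp or more among the 70, 5 lay at Col4a1 or vkg and the other at Pxn. Such peaks made up 8.57% of the 70 and 3.45% of the whole CAP-D3 list.

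At Col4a1, 8 of the 10 peaks lay in the span of 7.67 kb and covered 56.8% of it. All 10 followed each other closely, with gaps of 54 to 1592 bp and a median gap of 300 bp. The leftmost peak in the span, MACS peak 1166, extended from 5031048 to 5031932 and had a score of 9.93, just below 10. MACS peak 1171, from 5034466 to 5035183, had the highest score, 12.93. MACS peaks 1167 and 1168 had scores of 10.27 and 10.1, and the other peaks of the window had scores from 3.66 to 9.57. No peak of the gene was thus strong, and the number of peaks at a score of at least 10 was 3. The peak of 877 bp beyond the right end, with the lowest score, 3.66, overlapped the neighboring genes CG14042 and SP555.

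Col4a1 was also the gene with the most IgG peaks, 4 of the 7. Each lay wholly within a CAP-D3 peak. The IgG scores were 8.45, 6.78, 5.04 and 8.5, and the CAP-D3 peaks that contained them, MACS peaks 1166, 1168, 1172 and 1173, had scores of 9.93, 10.1, 8.38 and 9.57. CAP-D3 peaks covered 56.8% of the span and IgG peaks 18.6%. Of 913 other genes with a similar length, 3 had as many or more IgG peaks. How far recovery without a specific antibody entered the number of CAP-D3 peaks at Col4a1 was not tested. MACS peak 1171, the strongest of the gene, overlapped no IgG peak.

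vkg differed from Col4a1 in the arrangement of its peaks. It had 4 CAP-D3 peaks in its span, all toward the left end at 11.6 to 35.5%, and no IgG peak. MACS peak 1161, from 5013768 to 5014240, and MACS peak 1164, from 5017399 to 5018286, had scores of 10.63 and 10.47. Between them lay peaks of 729 and 1012 bp with scores of 7.2 and 9.01, the second being the widest of the 70. The part of vkg next to Col4a1, 9.9 kb or 61.7% of the span, had no peak. The highest score at vkg, 14.24, belonged to a peak from 5011672 to 5011981 beyond the left end of the gene, which overlapped the neighboring gene SelT.

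IgG peaks occurred at 4 of the 10 genes, ush, Hml, Pxn and Col4a1, against 14.2% of all genes. These genes are longer than most, and of the genes similar in length to each (a span at most 20% shorter or 25% longer), 24.9 to 61.4% had an IgG peak for these 4 and 15.7 to 39.6% for the other 6. The number of genes with an IgG peak thus says little by itself. With a score of at least 10, an IgG peak occurred at 2 genes, ush and Pxn, against 3.54% of all genes. These are the longest genes of the 10, and this count was not set beside genes of similar length. Of the 70 CAP-D3 peaks, 6 overlapped an IgG peak, or 8.57% (95% Wilson interval 3.99 to 17.5%, which covers counting error only and treats peaks as independent). In the whole list 13.9% of CAP-D3 peaks did. That share lies within the interval, but 4 of the 6 peaks lay close together at Col4a1. The interval therefore cannot decide whether the shares differ, and the difference was not tested. In the other direction, 6 of the 7 IgG peaks overlapped a CAP-D3 peak, and in the whole IgG list 79.2% did.

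By position, 64 of the 70 peaks had their midpoint within the gene to which they were assigned, and 3 each lay to the left and to the right. Since the spans make up most of each window, these counts say little by themselves. No such share was computed for the whole list. Only the peaks with midpoints in a span are divided by position below. Over the 3 equal parts of each span, 23 of the 64 peaks lay in the left, 23 in the middle and 18 in the right part. Of the 70 peaks, 9 also overlapped the span of another gene. Strand, exons and introns were not analysed here, so left and right do not stand for the start and the end of a gene. The next 4000 bp on both sides of the windows held 29 CAP-D3 peaks and 5 IgG peaks outside the window concerned. Of these, 3 CAP-D3 and 2 IgG peaks next to vkg belong to Col4a1 and were counted there.

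Because longer genes have more room for peaks, each gene was set beside all other genes with a span at most 20% shorter or 25% longer than its own, as a description. A CAP-D3 peak occurred at 69.6 to 86.5% of the genes similar in length to each of the 10, and one with a score of at least 10 at 40.4 to 77.2%. Of the 10 genes, 7 had more CAP-D3 peaks than the median of such genes. Hml was below it, and crq and eater were at the median of 1, or below the median of 2 when genes on 2L, 2R, 3L and 3R alone were used. With every score counted, Col4a1 stood highest, with 10 peaks against a median of 2, and 1 of 913 genes had as many or more. Pxn had 15 against a median of 5, and 3.83% of 366 genes had as many or more. ush had 23 against a median of 9, and 9.94% of 171 genes had as many or more. When genes on 2L, 2R, 3L and 3R alone were used, the medians were 2 for Col4a1, 6 for Pxn and 11 for ush. Of those genes, 0.138, 4.95 and 13% had as many or more. At a score of at least 10, Pxn had 11 peaks against a median of 2, and 0 of the 366 genes had as many or more. Col4a1 no longer stood highest at this score. It had 3 such peaks against a median of 0, and 9.64% of the 913 genes had as many or more.

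By number of peaks, the other 7 genes lay closer to genes of their length. vkg had 6 peaks against a median of 3, and 21.4% of 576 genes had as many or more. srp also had 6 against a median of 3, and 26.8% of 530 genes had as many or more. Pvr had 5 against a median of 3 and NimC1 had 2 against a median of 1, and 35.9 and 42.3% of the genes of their length had as many or more. For Hml, eater and crq these shares were 65.8, 70.0 and 71.9%. When genes on 2L, 2R, 3L and 3R alone were used, all these shares were higher. They were 26% for vkg, 32% for srp, 43.3% for Pvr and 49.4% for NimC1, and 78.5, 79.2 and 81.3% for Hml, eater and crq. The median was then 4 for vkg, srp and Pvr. By the covered share of the span alone, vkg and NimC1 came before ush, but that order takes no account of gene length. Of genes of similar length, 7.6% had at least the share of ush, 9.2% that of vkg and 28.6% that of NimC1. The covered share was 56.8% at Col4a1, against a median of 7.84% for genes of similar length. It was 21.2% at Pxn against 5.76%, 19.3% at vkg against 6.01%, 17.1% at NimC1 against 8.68% and 13.0% at ush against 5.06%. The share was 12.7% at srp against 5.87% and 8.87% at Pvr against 5.69%, and eater (7.16% against 8.47%), Hml (4.04% against 6.15%) and crq (0% against 7.58%) lay below the median.

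The position of Col4a1 among genes of similar length depended on how MACS divides a wide region into peaks. When peaks closer than 250 bp were joined, its 10 peaks became 6, and 27 of the 913 genes (2.96%) had as many or more. The covered share does not count peaks, and with the peaks as listed 0.219% of the genes had as high a share or a higher one. It was not computed again for joined peaks. Joining left 12 peaks at Pxn and 19 at ush, and 5.19 and 15.2% of the genes of their length had as many or more. Hml was then at the median of 2.

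**Figure D3:**
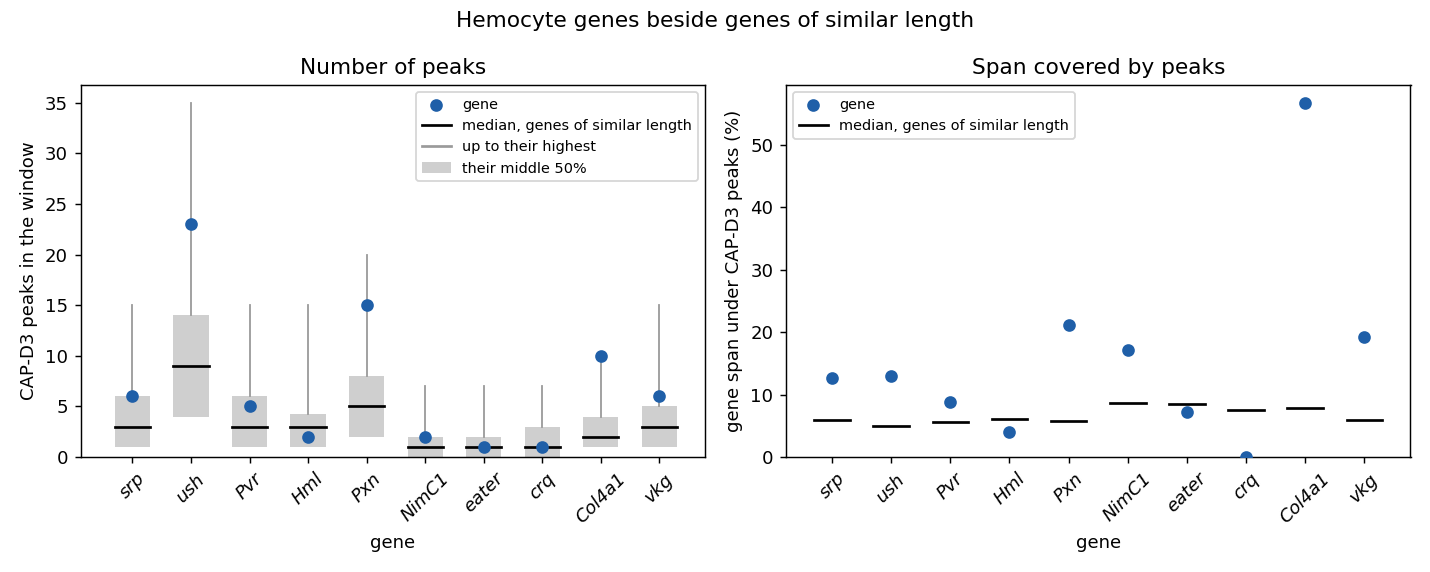
Number of CAP-D3 peaks (left) and share of the gene span under CAP-D3 peaks in percent (right) at each of the 10 genes. Blue points are the genes, black lines the medians of other genes with a span at most 20% shorter or 25% longer, grey boxes their middle 50% and grey lines reach their highest count. Col4a1, Pxn and ush lie above the boxes by the most peaks, and crq lies at 0% of its span.

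Other genes, chosen by gene family or function, were counted in the same way, in 6 lists with 51 genes. For comparison, 55.7% of all genes had a CAP-D3 peak, 33.1% one with a score of at least 10 and 14.2% an IgG peak. The lists include relatives by family, so a place in them does not mean that a gene acts in blood cells. All 10 genes of the Nimrod family and its relative Draper, which bind microbes or dying cells, had a CAP-D3 peak, 9 of 10 had one with a score of at least 10, and 2 of 10, NimB3 and NimB4, had an IgG peak. Their spans are short, with a median of 1.85 kb, and several lie side by side on 2L, so that their windows share peaks and the 10 genes held 21 distinct peaks. NimB1 and NimB2, whose windows overlap, shared a peak with a score of 23.1, above any peak at the 10 hemocyte identity genes. drpr, which encodes Draper, had the most peaks of this list, 7, with a highest score of 16.17 and no IgG peak. NimC1, with 2 peaks below 10, was weaker than most of its family, since of the 10 only NimC2, with 7.16, had no higher score.

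Among GATA factors and regulators of hemocytes, 9 of 11 genes had a peak, 7 had one that reached 10, and 5 had an IgG peak. pnr, which encodes the GATA factor Pannier, had 3 CAP-D3 peaks, all above 10 and up to 29.25, and no IgG peak. gcm, which directs plasmatocyte fate in the embryo, had 2, up to 21.05, and an IgG peak with a score of 7.3 that overlapped 1 of them. kn, which is needed for lamellocytes, had 5 CAP-D3 peaks, up to 20.28, and 1 IgG peak with a score of 7.14, and none of the 5 overlapped an IgG peak. Antp had 25 CAP-D3 and 10 IgG peaks in a span of 103 kb. No peak was listed at GATAd or at lz, the regulator of crystal cells. Of the ligands of Pvr, Pvf2 had 2 CAP-D3 peaks, up to 19.96, and an IgG peak with a score of 10.68 that overlapped 1 of them. Pvf3 had 4 CAP-D3 peaks, up to 17.94, and no IgG peak, and Pvf1 had neither. lz and Pvf1 lie on X, where 22% of genes had a CAP-D3 peak.

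Basement membrane genes other than collagen IV had a CAP-D3 peak in 9 of 10 cases, 7 of them with a score of at least 10, and 6 of the 10 had an IgG peak. wb, a laminin alpha chain, had 15 CAP-D3 and 6 IgG peaks in a span of 65.2 kb, and Ppn, which encodes Papilin, had 12 CAP-D3 and 2 IgG peaks in 19.7 kb. LanB1, the laminin beta chain, had none. Of 11 scavenger receptors, 5 had a CAP-D3 peak, the lowest share of the lists (45.5%), 3 had one with a score of at least 10, and 2 had an IgG peak. The highest number in this list, 5 CAP-D3 peaks beside 1 IgG peak, was at emp, a relative of crq in the CD36 family. Of the 6 crystal cell and lamellocyte genes, 5 had a CAP-D3 peak, 2 had one with a score of at least 10, and none had an IgG peak. The kinase gene msn had 8 peaks with scores up to 9.11. Against 55.7% of all genes, these shares are descriptions of short lists that differ in gene length, and no difference between them was tested.

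**Figure D4:**
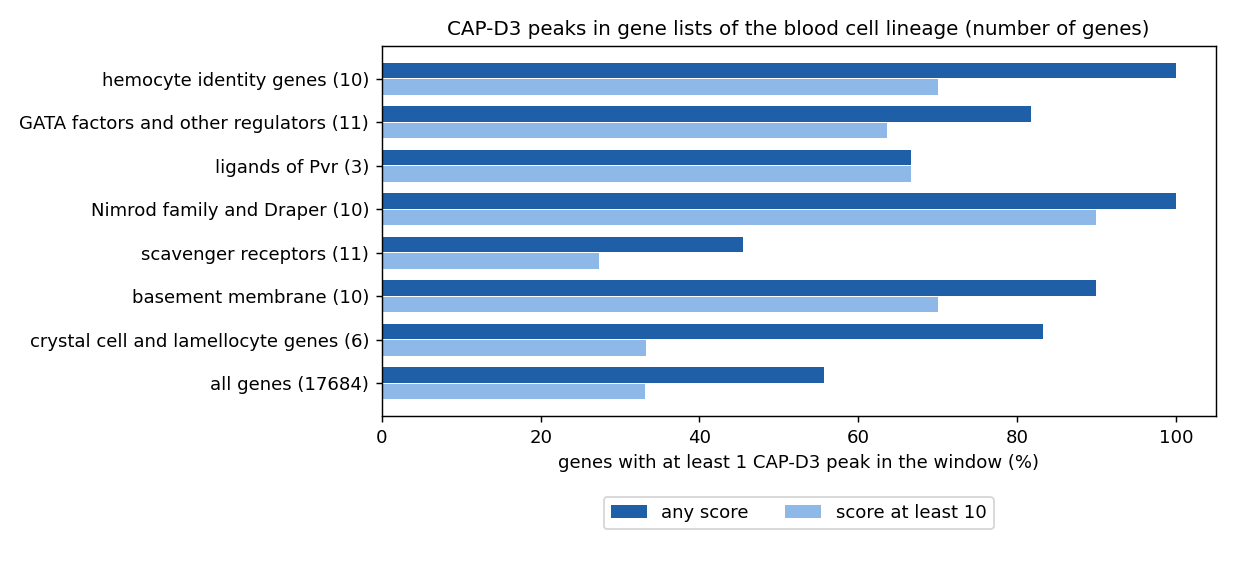
Share of genes with at least 1 CAP-D3 peak within the span plus 1000 bp on both sides, in percent, for the 10 hemocyte identity genes, the 6 other lists and all 17684 genes. Dark bars count every listed peak and light bars those that reach 10, with the number of genes in parentheses. The hemocyte identity genes and the Nimrod list reach 100% in the dark bars, and scavenger receptors are lowest with 45.5%.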

How the data were processed

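ChIP-seq was performed by the authors in S2 cells for CAP-D3 and IgG, with input chromatin as the background. The authors deposited 1 list of peaks per antibody, and the scores deposited in both lists are −log10 of a p-value or q-value from MACS. Which of these it is, the genome assembly and the way in which experiments were combined are not given in the sources used here. The submitters' processing notes name CASAVA 1.4, Trim Galore 0.3.7, cutadapt 1.8, FastQC 0.11.3, Bowtie 1.0.0 and MACS2 2.0.9. MACS tests each region against input and splits or joins neighboring regions, so that scores depend on library depth and numbers of peaks on that division.

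Gene names and spans came from the RefSeq table of Release 6 plus ISO1 MT. It fitted the lists in that 2.75% of CAP-D3 midpoints lay within 150 bp of a gene end, against 7.96 to 8.94% for peaks displaced by 500 bp or more. All 61 genes were found by symbol. Positions are counted from 1, and gene coordinates are not printed. Counts, overlaps, Wilson intervals and covered bases were computed with Python 3.11.15, numpy 2.4.6, pandas 2.3.3 and scipy 1.17.1, figures were drawn with matplotlib 3.10.9, and counting was checked on simulated data.

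The 10 genes and the 6 other lists were chosen with earlier results of these data known, and no test or p-value is given. Every one of the 10 genes is described. In the other lists, the genes with the most peaks or the highest scores and those with none were named after their values were seen. The rates around each gene, the joining of peaks and the restriction to 2L, 2R, 3L and 3R were added after the data had been seen.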

Additional observations from a re-analysis of the deposited data

How the results depend on the processing

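No paired analysis was possible because the 2 lists carry no replicate numbers, and for the same reason no replicate could be left out. Depth is unknown, which limits any comparison of numbers of peaks between the lists. The 70 CAP-D3 peaks became 33 at a score of at least 10 and 2 at 20, and 10 genes with a peak became 1 at a score of at least 20. The 6 peaks that overlapped an IgG peak became 2 of 33 at a score of at least 10, 0 of 2 at 20, 2 of 70 against IgG peaks of score 10 or more, and 10 of 96 with 5000 bp on both sides. Spans alone (64 peaks, 9 genes), windows of 5000 bp (96 peaks, 10 genes), midpoints within the window (69 peaks, 9 genes) and joined peaks (58 peaks) stayed within 1.5 times the count. The gene lost with spans alone and with midpoints was crq. Under all 4 alternatives tried, 7 of 10 genes exceeded the median of genes of similar length. With spans 0.5 to 2 times as long, the share of genes with as many peaks was 5.86% for ush (against 9.94%), 38.5% for NimC1 and 67.7% for eater.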
